A study of Mus musculus with 8 samples.

Results

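Acetylcholine reaches hippocampal cells through metabotropic muscarinic receptors and ionotropic nicotinic receptors, and 9 genes of these families were followed here: the 5 muscarinic genes Chrm1 to Chrm5 and the nicotinic subunit genes Chrna4, Chrna5, Chrna7 and Chrnb2. The members were given by name and matched through GENCODE vM21 symbols to Ensembl identifiers, which found all 9 among the 39017 genes of the count table. The study measured RNA on tagged ribosomes of mouse hippocampus by translating ribosome affinity purification (TRAP) and RNA sequencing. By the design text, mice of both groups carried Cre under the control of Cck (CCK cre+) and L10-EGFP, a ribosomal protein fused to a fluorescent tag. Mice of the conditional knockout group (cKO, 5 libraries) were SMARCA3 fl/fl, so that Cre deletes the floxed gene Hltf, which encodes the chromatin remodeller SMARCA3. The control group (WT, 3 libraries) consisted of littermates that were not SMARCA3 fl/fl. Whether these littermates carried 1 floxed copy is not stated, and neither are age and sex in the sources used here. Each library pooled 4 hippocampi, so p-values measure the spread between pools. Cck-driven Cre marks every cell that expresses or once expressed Cck, which includes glutamatergic neurons beside CCK interneurons.

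Muscarinic receptors are G protein-coupled. The M1, M3 and M5 receptors act through Gq and phospholipase C, and in hippocampal pyramidal cells this closes the Kcnq potassium channels that carry the M-current. The M2 and M4 receptors act through Gi/o, which inhibits adenylyl cyclase and opens Kcnj potassium channels, and they serve partly as presynaptic autoreceptors. Nicotinic receptors are pentameric cation channels; Chrna4 and Chrnb2 encode the subunits of the common high-affinity brain receptor, Chrna5 an accessory subunit that joins it, and Chrna7 the subunit of a calcium-permeable homopentamer found on hippocampal interneurons and terminals.

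Library totals ran from 31760155 to 61823651 counts, and the receptor genes had from 51 counts (Chrm2 in cKO 3) to 8616 counts (Chrm1 in cKO 2) per library. Hltf was at 5.10, 4.49, 4.21 and 2.83 CPM in cKO 1, 2, 3 and 4 and at 11.4 CPM in the library labelled cKO 5, against 13.7, 8.39 and 9.87 CPM in WT 1, 2 and 3. The level in the library labelled cKO 5 thus goes against its label. The log2 fold change of Hltf, cKO over WT, was -0.93 ± 0.39 (SE), and -1.36 without that library. Its edgeR p over all 8 libraries was 0.0383 before adjustment and 0.558 after it, so the fit did not call the floxed gene itself. CPM here are counts relative to library size, scaled by the trimmed mean of M-values (TMM). Cck was at 571 to 837 CPM in cKO and at 415 to 631 CPM in WT. Of the 5 cholinergic neuron markers, Isl1 and Lhx8 had 0 counts in every library, Chat had 2 counts in cKO 1 and 0 elsewhere, and Slc18a3 was not analysed here. Slc5a7, the choline transporter of cholinergic terminals, had 23, 39 and 1 counts in cKO 1, cKO 2 and the library labelled cKO 5, and 0 in the other libraries.

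Ordered by level per length, Chrm1 stood far above the other receptors and Chrm2 far below them. The other 7 genes ran down from Chrna4 to Chrna5 in smaller steps, each overlapping its neighbour. RPKM, the scaled CPM divided by the kilobases of annotated exon, averaged 23.1 ± 3.69 for Chrm1 (SD over 8 libraries), 6.33 ± 1.54 for Chrna4, 4.89 ± 1.17 for Chrm3, 4.53 ± 0.811 for Chrm4 and 4.22 ± 0.641 for Chrnb2. The lower genes averaged 2.90 ± 0.635 RPKM for Chrna7, 2.44 ± 1.06 RPKM for Chrm5, 1.78 ± 0.544 RPKM for Chrna5 and 0.423 ± 0.209 RPKM for Chrm2. Chrm1 exceeded Chrna4 in all 8 libraries by 1.90 ± 0.39 on the log2 RPKM scale (exact paired permutation test, adjusted p 0.0208 over 8 neighbouring genes). Chrna5 exceeded Chrm2 in all 8 libraries by 2.15 ± 0.86 in log2 RPKM, with the same exact adjusted p. Chrnb2 also exceeded Chrna7 in all 8 libraries, by 0.55 ± 0.31 in log2 RPKM (exact adjusted p 0.0208), although their ranges over libraries overlapped.

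The other 5 neighbours in this order were not separated. Chrna4 was above Chrm3 in 5 of 8 libraries (exact paired permutation, adjusted p 0.156), Chrm3 above Chrm4 in 4 of 8 (0.547), and Chrm4 above Chrnb2 in 4 of 8 (0.547). Chrna7 was above Chrm5 in 5 of 8 libraries (exact adjusted p 0.271), and Chrm5 above Chrna5 in 7 of 8 (0.163). The middle of the order also depends on the length used. With the longest transcript in place of the union of exons, Chrm3 averaged 7.05 RPKM and Chrna4 6.97 RPKM, Chrm3 exceeded Chrm4 by 0.63 on the log2 scale (exact adjusted p 0.0156), and the step from Chrnb2 to Chrna7 shrank to 0.26 (exact adjusted p 0.0938). In GENCODE vM21, which gave the lengths, Chrm4 and Chrm5 are annotated only over their coding sequence, at 1440 and 1599 bases in 1 transcript each. The annotation used for counting is not stated, so the RPKM of these genes hold for those lengths only.

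**Figure D1:**
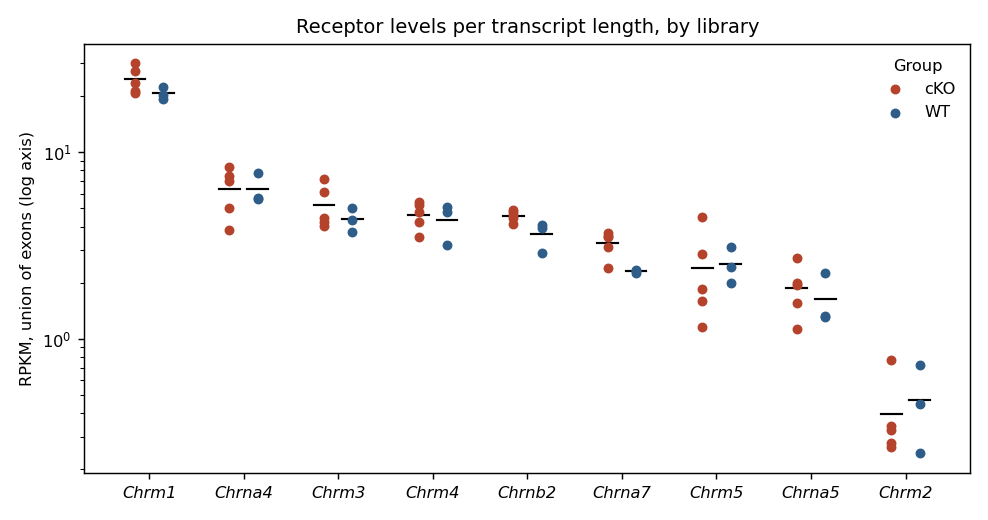
RPKM (log axis) of the 9 receptor genes, ordered by mean, with 1 point per library, cKO left of WT, and bars at the group means. Chrm1 averaged 23.1 RPKM and Chrm2 0.423 RPKM over the 8 libraries, and the 7 genes between them overlap their neighbours in the order.

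Chrm1, the main Gq-coupled muscarinic receptor of forebrain pyramidal cells (ENSMUSG00000032773, chromosome 19 of mm10, 8663789 to 8683587), was at 135, 138, 152 and 178 CPM in cKO 1, 2, 3 and 4 and 194 CPM in the library labelled cKO 5, against 146, 126 and 132 CPM in WT 1, 2 and 3. The 3 highest libraries were all cKO, but cKO 1 and 2 fell within the WT range, so the groups overlapped. Means were 159 ± 25.7 CPM in cKO (SD, n = 5) and 135 ± 10.2 CPM in WT (SD, n = 3). The log2 fold change, cKO over WT throughout, was 0.24 ± 0.13 (SE), and its edgeR adjusted p of 0.642 did not pass the threshold of 0.05. It was 0.16 without the library labelled cKO 5 and 0.069 over the 6 libraries numbered 1 to 3.

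Chrm3, a Gq-coupled receptor also found outside the brain in glands and smooth muscle (ENSMUSG00000046159, chromosome 13, 9875486 to 10360847), was at 27.8, 25.1, 26.6 and 38.2 CPM in cKO 1, 2, 3 and 4 and 44.8 CPM in the library labelled cKO 5, against 31.5, 27.1 and 23.5 CPM in WT 1, 2 and 3. Only cKO 4 and the library labelled cKO 5 lay above the WT range. The log2 fold change was 0.25 ± 0.21 (SE; edgeR adjusted p 0.783), and it was -0.051 over the 6 libraries without those 2. Chrm5, the rarest muscarinic subtype in most of the brain (ENSMUSG00000074939, chromosome 2, 112479171 to 112480769), was at 4.58, 2.56, 2.96 and 1.86 CPM in cKO 1, 2, 3 and 4 and 7.20 CPM in the library labelled cKO 5, against 4.999, 3.88 and 3.17 CPM in WT 1, 2 and 3. The lowest and the highest value both belonged to cKO libraries, and 3 of 5 lay below all WT libraries. Its log2 fold change was -0.07 ± 0.43 (SE; edgeR adjusted p 0.980), and leaving out 1 library moved it from -0.43 without the library labelled cKO 5 to 0.12 without WT 1.

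Of the Gi/o-coupled receptors, Chrm4 (ENSMUSG00000040495, chromosome 2, 91927249 to 91928688) was at 5.06, 7.54, 7.76 and 6.87 CPM in cKO 1, 2, 3 and 4 and 6.08 CPM in the library labelled cKO 5. In WT 1, 2 and 3 it was at 7.31, 6.93 and 4.60 CPM. Both groups covered almost the same range, and the log2 fold change of 0.09 ± 0.25 (SE) had an edgeR adjusted p of 0.956. Chrm2, the subtype known from cardiac muscle and from autoreceptors on cholinergic terminals (ENSMUSG00000045613, chromosome 6, 36388084 to 36528414), was at 1.67, 1.97, 1.59 and 4.64 CPM in cKO 1, 2, 3 and 4 and 2.06 CPM in the library labelled cKO 5, against 4.39, 1.47 and 2.70 CPM in WT 1, 2 and 3. Its high values were in cKO 4 and WT 1, so the spread within each group was larger than the difference between them. The log2 fold change was -0.25 ± 0.47 (SE; edgeR adjusted p 0.917), and it was -0.64 without cKO 4 and 0.19 without WT 1.

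The nicotinic genes differed among themselves. Chrnb2, the beta subunit that the high-affinity receptor needs (ENSMUSG00000027950, chromosome 3, 89746195 to 89764632), was at 34.4, 38.5, 37.2 and 41.0 CPM in cKO 1, 2, 3 and 4 and 40.3 CPM in the library labelled cKO 5, against 24.2, 34.4 and 32.8 CPM in WT 1, 2 and 3. All 5 cKO libraries lay above all 3 WT libraries, though cKO 1 and WT 2 differed only in the second decimal (34.42 and 34.38 CPM). Means were 38.3 ± 2.63 CPM in cKO (SD, n = 5) and 30.5 ± 5.48 CPM in WT (SD, n = 3). The fold was 1.26, or 0.33 ± 0.14 (SE) on the log2 scale. The edgeR p was 0.0430 before adjustment and 0.562 after it, so Chrnb2 did not pass. The exact permutation p of 0.0179 is the smallest that these 8 libraries can give. Without WT 1, the lowest library, the log2 fold change was 0.19. Exons of Adar, on the opposite strand, share 1365 bases with Chrnb2, 16.3% of its exonic length, and whether the counting used strand is not stated. Adar, which encodes an RNA-editing enzyme, was at 32.8 to 68.0 CPM in cKO and 44.4 to 45.8 CPM in WT, a log2 fold change of 0.04 ± 0.20 (SE; edgeR adjusted p 0.974).

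Chrna7 (ENSMUSG00000030525, chromosome 7, 63098692 to 63212569) had the largest fold change of the 9 genes. Its values were 16.1, 16.6, 15.9 and 10.8 CPM in cKO 1, 2, 3 and 4 and 14.0 CPM in the library labelled cKO 5, against 10.6, 10.2 and 10.4 CPM in WT 1, 2 and 3. The WT libraries were almost equal, 4 cKO libraries stood clearly above them, and cKO 4 exceeded the highest WT library by less than 1 CPM. Means were 14.7 ± 2.37 CPM in cKO (SD, n = 5) and 10.4 ± 0.214 CPM in WT (SD, n = 3). The fold was 1.41, or 0.50 ± 0.19 (SE) on the log2 scale. The edgeR p was 0.0221 before adjustment and 0.522 after it, and the exact permutation p was 0.0357. By DESeq2 the adjusted p was 0.153 for Chrna7 and 0.295 for Chrnb2, so neither passed there. In plain CPM, without the TMM factors, 4 of 5 cKO libraries exceeded all WT libraries for each of these genes, since cKO 4 was at 10.58 CPM and WT 1 at 10.69 CPM for Chrna7, and cKO 1 was at 34.80 CPM and WT 2 at 34.85 CPM for Chrnb2.

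Chrna4 (ENSMUSG00000027577, chromosome 2, 181018380 to 181043546) was at 19.3, 37.3, 41.9 and 25.1 CPM in cKO 1, 2, 3 and 4 and 35.4 CPM in the library labelled cKO 5, against 38.7, 28.5 and 28.1 CPM in WT 1, 2 and 3. Its cKO values spread over a factor of 2.16 and enclosed the whole WT range. Means were 31.8 ± 9.28 CPM in cKO (SD, n = 5) and 31.8 ± 5.98 CPM in WT (SD, n = 3), and the log2 fold change was 0.0009 ± 0.24 (SE; edgeR adjusted p 0.999). The 95% interval of that fold change, -0.47 to 0.47, leaves room for changes as large as the one estimated for Chrnb2. It is a normal approximation from the SE, which is too narrow with so few libraries. Chrna5 (ENSMUSG00000035594, chromosome 9, 54980880 to 55007779) was at 6.11, 3.52, 4.90 and 6.24 CPM in cKO 1, 2, 3 and 4 and 8.45 CPM in the library labelled cKO 5, against 4.09, 7.09 and 4.14 CPM in WT 1, 2 and 3. The groups overlapped, and the log2 fold change was 0.19 ± 0.33 (SE; edgeR adjusted p 0.909). It was 0.016 without the library labelled cKO 5, 0.055 without WT 1, 0.060 without WT 3, 0.34 without cKO 2 and 0.50 without WT 2, and its sign turned over the 6 libraries (-0.088) and by limma-voom (-0.069).

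**Figure D2:**
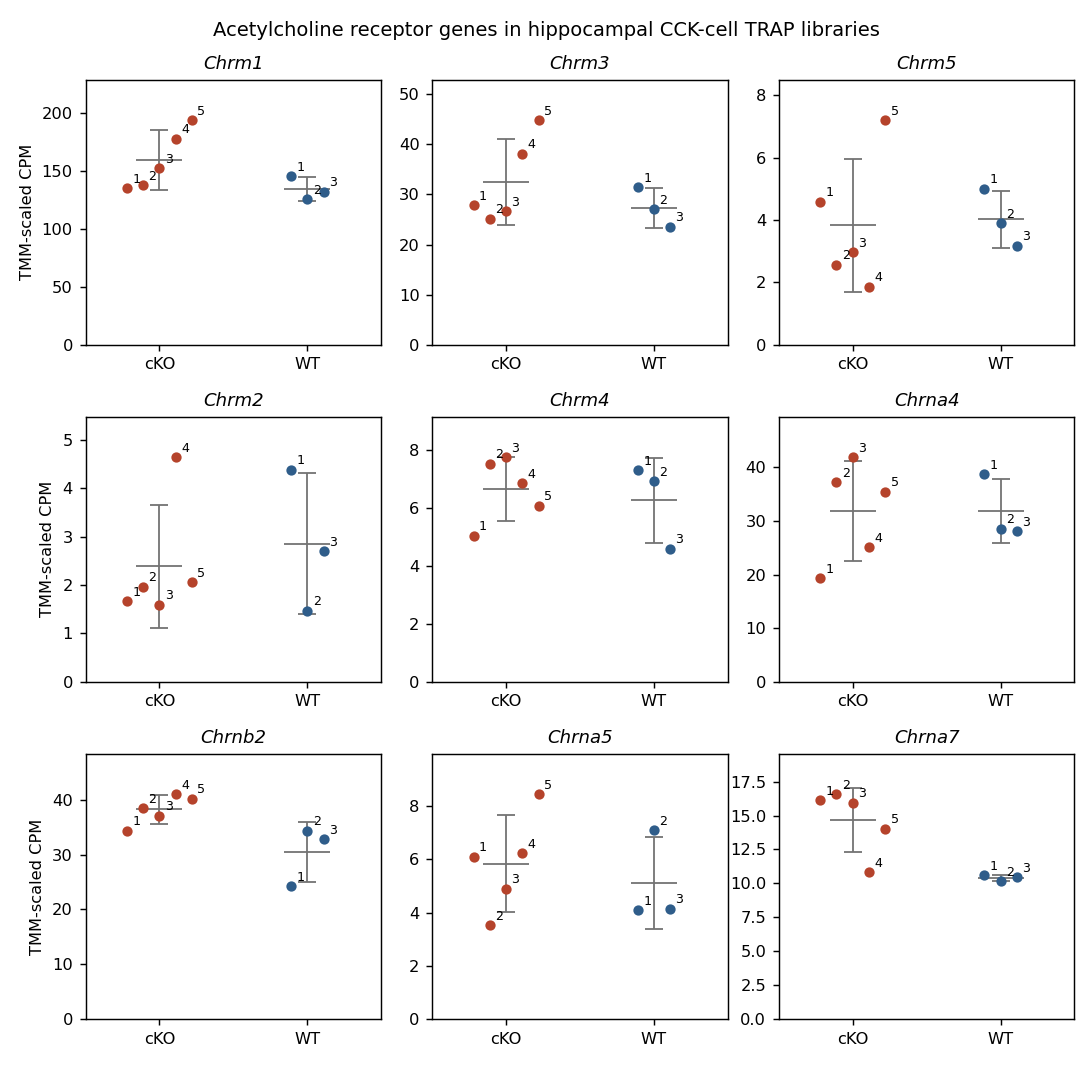
TMM-scaled CPM of each receptor gene, with 1 numbered point per library, cKO left and WT right, and the group mean ± SD in grey. All 5 cKO points lie above all 3 WT points for Chrnb2 and Chrna7, and the groups overlap for the other 7 genes.

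The 250 bases before the RefSeq start are printed for these 2 genes because their groups did not overlap, 5′ to 3′ on the gene's strand (RefSeq, build GRCm38.p6). They lie on the minus strand at chr7:63212527-63212776 for Chrna7 and chr3:89764633-89764882 for Chrnb2. Capitals mark E-boxes, the motif of basic helix-loop-helix factors, found as CANNTG, which reads the same on both strands.
Chrna7: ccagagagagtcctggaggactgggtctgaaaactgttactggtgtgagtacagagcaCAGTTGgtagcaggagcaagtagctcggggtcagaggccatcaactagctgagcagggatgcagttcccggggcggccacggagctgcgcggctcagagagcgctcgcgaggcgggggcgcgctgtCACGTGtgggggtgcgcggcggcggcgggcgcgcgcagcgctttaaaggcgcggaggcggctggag
Chrnb2: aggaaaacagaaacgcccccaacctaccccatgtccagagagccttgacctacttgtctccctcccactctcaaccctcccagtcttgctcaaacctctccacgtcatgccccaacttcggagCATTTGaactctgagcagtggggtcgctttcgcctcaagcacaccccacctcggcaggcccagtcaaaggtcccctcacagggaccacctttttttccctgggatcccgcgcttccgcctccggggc
The Chrna7 window held 2 E-boxes and 25 CpG dinucleotides at 67.2% GC, and the Chrnb2 window 1 E-box and 10 CpG dinucleotides at 59.6% GC. At least 1 E-box stood in 66.2% of 32851 such windows in the table, so this match does not set the 2 genes apart. The GC box GGGCGG, searched on both strands and present in 32.7% of all windows, occurred 1 time in the Chrna7 window and 0 times in the Chrnb2 window. A window was given for 8 of the 9 genes, Chrm1 excepted.

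Over all 9 genes, 0 were called higher and 0 lower in cKO by edgeR, and the same held for 0% of 17654 genes tested in each direction. All 9 passed the filter on low counts. At an unadjusted p under 0.05 there were 2 of 9, both higher, which is 22.2%, against 8.72% of all genes tested (5.02% higher and 3.70% lower). The same 2 genes were those without overlap between cKO and WT libraries, against 7.19% of all genes tested (3.38% higher and 3.82% lower). The median log2 fold change was 0.19 over the 9 genes and 0.02 over all genes. A count of 2 among 9 genes is not read as particular to the receptors. DESeq2 called 0 of the 7 members for which it gave an adjusted p, against 1.31% of 10893 genes.

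**Figure D3:**
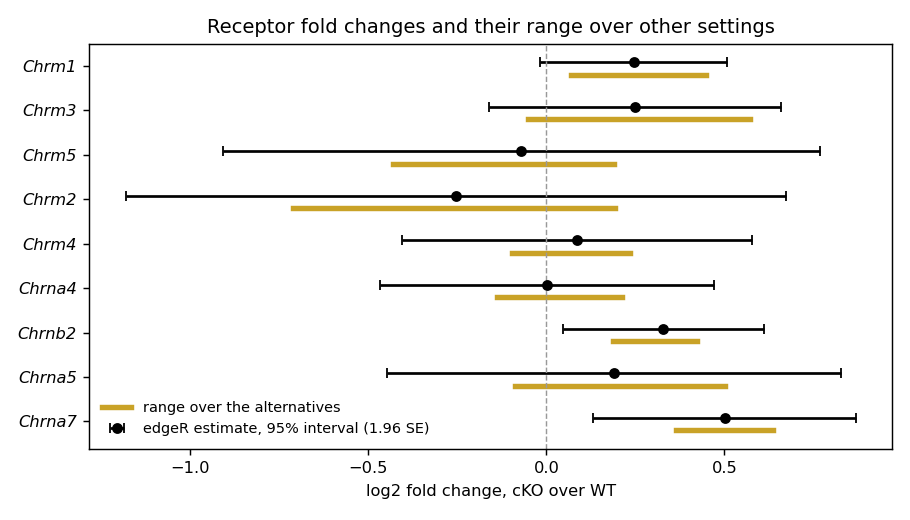
Log2 fold change (cKO over WT) of each receptor gene from edgeR, with its 95% interval (normal approximation) in black. The range over the alternative settings is in yellow below it. The estimates for Chrna7 (0.50) and Chrnb2 (0.33) keep their sign in every setting run, while their adjusted p stays above 0.05 throughout.

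The balance between receptors was compared within libraries, where scaling between libraries cancels. Chrm1 made up 66.1 ± 1.35% of the summed RPKM of the 5 muscarinic genes in cKO (SD, n = 5) and 64.1 ± 3.80% in WT (SD, n = 3). The Gq-coupled genes Chrm1, Chrm3 and Chrm5 together made up 86.3 ± 2.97% in cKO and 85.2 ± 2.23% in WT. The 5 muscarinic genes held 69.7 ± 3.53% of the summed RPKM of all 9 genes in cKO and 69.9 ± 1.73% in WT. These shares are given without a test, and the libraries of the groups overlapped in each of them.

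Of 5 ratios between receptor genes, none differed between the groups past the threshold. The log2 ratio of Chrna4 to Chrnb2 RPKM was 0.42 ± 0.43 in cKO (SD, n = 5) and 0.80 ± 0.53 in WT (SD, n = 3). That ratio ran from -0.09 in cKO 1 to 0.91 in cKO 3, so the 2 subunits did not keep a fixed proportion even among cKO libraries. The difference of -0.38 had an exact permutation p of 0.304, or 0.857 adjusted over the 5 ratios. Chrna7 to Chrnb2 was at -0.50 ± 0.33 in cKO and -0.64 ± 0.30 in WT (difference 0.14, exact p 0.643), and Chrna5 to Chrna4 at -1.76 ± 0.76 in cKO and -1.98 ± 0.62 in WT (0.22, exact p 0.750). Chrm3 to Chrm1 was the tightest, at -2.26 ± 0.17 in cKO and -2.25 ± 0.16 in WT (-0.01, exact p 0.857). Chrm4 to Chrm1 was at -2.41 ± 0.33 in cKO and -2.27 ± 0.35 in WT (-0.14, exact p 0.679). All 5 ratios had an exact p of 0.857 after adjustment.

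Libraries differed in their regional markers. Of the receptor genes compared with that split below, only Chrm3 followed it across both genotypes. Prox1, a transcription factor of dentate granule cells, was at 166, 187, 155 and 37.9 CPM in cKO 1, 2, 3 and 4 and 46.5 CPM in the library labelled cKO 5, against 43.1, 97.0 and 178 CPM in WT 1, 2 and 3. The 5 dentate markers summed to 70.2 to 268 CPM in cKO and 82.7 to 274 CPM in WT, so low and high libraries stood in both groups. C1ql2, Dsp and Tdo2 were also lowest in cKO 4, the library labelled cKO 5 and WT 1, but Lct was not: it was at 15.4 CPM in cKO 4, 27.2 CPM in the library labelled cKO 5 and 22.7 CPM in WT 1, against 18.1 to 25.0 CPM in the other libraries. Wfs1, a marker of CA1 pyramidal cells, was highest in the 3 libraries with the lowest Prox1, at 320 CPM in cKO 4, 304 CPM in the library labelled cKO 5 and 215 CPM in WT 1. Fibcd1, another CA1 marker, was highest in the same libraries, while Spink8, also of CA1, was at 107 CPM in cKO 4 and 103 CPM in the library labelled cKO 5, against 125 CPM in WT 1 and 123.4 CPM in WT 2. The 3 libraries with the lowest Prox1 also had the largest shares of tested genes at 0 counts. These shares were 3.74% for the library labelled cKO 5, 2.43% for cKO 4 and 1.65% for WT 1. They ran from 0.238% (cKO 1) to 0.793% (cKO 3) in the other libraries. Whether this difference bears on the marker or receptor values was not tested. The 3 highest Chrm3 values (44.8, 38.2 and 31.5 CPM) were in the 3 libraries with the lowest Prox1. For Chrm1, cKO 4 and the library labelled cKO 5 were highest in cKO, and WT 1 was highest in WT. WT 1, at 146 CPM, was below cKO 3, at 152 CPM. Chrm2 was high in WT 1 and cKO 4 and not in the library labelled cKO 5, while Chrna7 was lowest among the cKO libraries in the 2 with low Prox1 and nearly level over the WT libraries.

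With the mean of the dentate markers as a covariate, chosen after seeing the data, the log2 fold changes were 0.23 for Chrm1, 0.23 for Chrm3, 0.48 for Chrna7 and 0.33 for Chrnb2. The centred covariate ran from -0.996 to 0.681 in cKO and from -0.903 to 0.792 in WT. It was thus nearly balanced between the groups, and this fit could move the fold changes only little. Markers of other cells were summed per library. The 10 oligodendrocyte markers summed to 82.2 to 107 CPM in cKO and 70.5 to 74.5 CPM in WT, and all 10 had a log2 fold change above 0. Over all genes tested, 9362 of 17654 had one above 0. Most of the oligodendrocyte sum was Mbp and Cnp. Mag, Mog, Opalin and Cldn11 had at most 51 counts in any library. The 8 astrocyte markers summed to 338 to 508 CPM in cKO and 331 to 441 CPM in WT, the 7 microglia markers to 2.499 to 6.21 CPM in cKO and 4.08 to 6.51 CPM in WT, and the 5 endothelial markers to 0.671 to 2.88 CPM in cKO and 0.851 to 0.928 CPM in WT. Of neuronal lists, the glutamatergic markers summed to 7893 to 12064 CPM in cKO and 7302 to 7943 CPM in WT, the GABAergic markers to 139 to 259 CPM in cKO and 185 to 230 CPM in WT, and the CCK interneuron markers to 762 to 1034 CPM in cKO and 616 to 827 CPM in WT. Most of the glutamatergic sum was Camk2a and most of the CCK interneuron sum was Cck. Most of the astrocyte sum was Slc1a2, at 300 to 478 CPM over all libraries. Over the CCK interneuron list 4 of 8 genes had a log2 fold change above 0, with a median of -0.16. The glutamatergic list had 6 of 8 above 0, with a median of 0.18, and the astrocyte list 6 of 8, with a median of 0.11. At an unadjusted edgeR p under 0.05, 3 oligodendrocyte, 2 glutamatergic and 1 astrocyte marker were higher. Lower were 1 microglia and 1 thalamic marker. Groups did not overlap for 3 oligodendrocyte and 2 glutamatergic markers, all higher. Over all genes tested, 5.02% were higher and 3.70% lower by that p, and 3.38% higher without overlap. The 2 glutamatergic genes were Slc17a7 and Camk2a (log2 fold changes 0.49 and 0.32), and 0 markers passed after adjustment. Thalamic markers summed to 118 to 150 CPM in cKO and 129 to 141 CPM in WT, and choroid plexus markers to 25.5 to 76.5 CPM in cKO and 27.8 to 38.3 CPM in WT. Most of the thalamic sum was Ntng1 and Rora, while Tcf7l2 reached at most 1.06 CPM and Lef1 1.81 CPM in any library. Most of the choroid plexus sum was Kl and Ttr, and Folr1 had 13 counts over all libraries. The part of these other cells in the receptor values was not tested beyond the covariate fit. With a covariate from the oligodendrocyte, astrocyte, microglia and endothelial lists the log2 fold change was 0.36 for Chrna7 and 0.39 for Chrnb2, and Chrm1 was at 0.45 (edgeR adjusted p 0.0695) and Chrm3 at 0.57 (0.117). This covariate, centred, ran from -0.293 to 0.539 in cKO and from -0.318 to -0.0624 in WT. It was thus not balanced between the groups. Within each group it was lowest in the libraries with the lowest Prox1, cKO 4, the library labelled cKO 5 and WT 1. What it removes cannot be fully told apart from genotype or from the regional split. In bulk pull-downs, fewer cells of a type and less RNA per cell cannot be told apart.

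**Figure D4:**
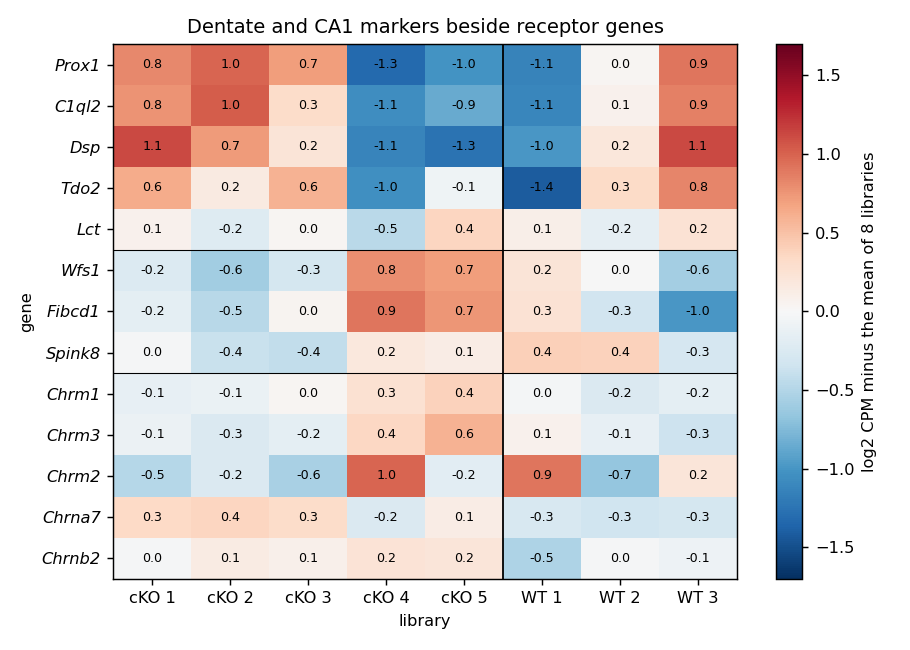
Log2 CPM minus the mean of the 8 libraries for the 5 dentate granule cell markers (top), 3 CA1 markers (middle) and 5 receptor genes (bottom), with cKO libraries left of WT libraries. The columns of cKO 4, the library labelled cKO 5 and WT 1 hold the 3 lowest values of Prox1, C1ql2, Dsp and Tdo2 and the 3 highest of Wfs1, Fibcd1 and Chrm3, across both genotypes, and Lct and Spink8 do not follow this order.

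Among the other 12 nicotinic subunit genes, Chrna9, Chrnd and Chrng had 0 counts in every library and 9 had some, but only Chrna1, Chrna3 and Chrnb1 passed the filter on low counts. These other genes together summed to 2.80 to 5.18 CPM in cKO and 2.65 to 2.91 CPM in WT. Chrna1, a subunit of the muscle receptor, was at 2.503 ± 1.22 CPM in cKO (SD, n = 5) and 1.49 ± 0.0885 CPM in WT (SD, n = 3), a log2 fold change of 0.75 ± 0.50 (SE; edgeR adjusted p 0.724). Chrna3, known from autonomic ganglia, was at 0.49 ± 0.81 (log2 fold change ± SE) and Chrnb1, another muscle subunit, at 0.42 ± 0.69. Chrna2, which marks a class of hippocampal interneurons of stratum oriens, had 57 counts over all libraries and was not tested. Of 7 genes for acetylcholine synthesis, transport and breakdown, 6 were in the table analysed, 2 were tested and 0 passed by edgeR or at an unadjusted p under 0.05. Ache, the esterase, was at 8.06 ± 2.40 CPM in cKO (SD, n = 5) and 6.10 ± 0.762 CPM in WT (SD, n = 3), a log2 fold change of 0.40 ± 0.27 (SE; edgeR adjusted p 0.727). Bche, which encodes butyrylcholinesterase, was at 6.28 ± 3.83 CPM in cKO and 2.86 ± 1.17 CPM in WT, a log2 fold change of 1.13 ± 0.60 (SE; edgeR adjusted p 0.630) with overlapping groups.

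The 8 genes for chaperones and Ly6 proteins that act on nicotinic receptors were all tested; 0 passed by edgeR, 3 had an unadjusted p under 0.05, all higher, and the median log2 fold change was 0.41. The same 3 genes did not overlap between the groups. Over all genes tested, 8.72% had an unadjusted p under 0.05 (5.02% higher), 7.19% did not overlap (3.38% higher) and the median was 0.02; nothing particular to this list is read from its 8 genes. Lynx1, a membrane-anchored brake on nicotinic receptors, was at 315 ± 33.9 CPM in cKO (SD, n = 5) and 236 ± 18.7 CPM in WT (SD, n = 3), a log2 fold change of 0.42 ± 0.11 (SE). The edgeR adjusted p was 0.480. The exact permutation p was 0.0179, not adjusted and the smallest these libraries can give, for a gene named by its small p. Ly6e was at 235 ± 17.9 CPM in cKO and 178 ± 14.0 CPM in WT (log2 fold change 0.40 ± 0.10, SE; edgeR adjusted p 0.480). Ly6h, a brain Ly6 protein that lowers surface alpha-7 receptors, was at 15.4 ± 4.76 CPM in cKO and 9.06 ± 1.46 CPM in WT (log2 fold change 0.77 ± 0.26, SE; edgeR adjusted p 0.499). Lypd6 was at 3.36 ± 1.36 CPM in cKO and 1.35 ± 1.32 CPM in WT, with overlapping groups (log2 fold change 1.31 ± 0.66, SE; edgeR adjusted p 0.609). DESeq2 called Ly6e (adjusted p 0.0238). The chaperone genes lay nearer to 0. Ric3, which assists assembly of alpha-7 receptors, had a log2 fold change of 0.06 and Tmem35a, also called NACHO, one of -0.08.

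Of 20 genes of the Gq pathway, 18 were tested, 0 passed by edgeR, and 3 higher and 1 lower had an unadjusted p under 0.05, with a median log2 fold change of -0.02, against 5.02% higher and 3.70% lower over all genes tested. Gna11, a Gq-family alpha subunit, was at 67.3 ± 7.63 CPM in cKO (SD, n = 5) and 42.9 ± 2.20 CPM in WT (SD, n = 3), a log2 fold change of 0.65 ± 0.12 (SE; edgeR adjusted p 0.470), with no overlap between the groups. Its close relative Gnaq, at 421 to 509 CPM, had a log2 fold change of -0.03. Rgs2, which shortens Gq signals, was at 126 ± 5.99 CPM in cKO and 178 ± 34.8 CPM in WT (log2 fold change -0.50 ± 0.12, SE; edgeR adjusted p 0.480), with all cKO libraries below all WT libraries. DESeq2 called Gna11 (adjusted p 8.28e-04) and Rgs2 (0.0305). Dagla, which makes the endocannabinoid 2-AG, was at 0.43 ± 0.15 (log2 fold change ± SE; edgeR adjusted p 0.499). The M-current channel genes Kcnq3 and Kcnq5 had log2 fold changes of 0.13 and -0.01.

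All 18 genes of the Gi/o pathway were tested, 0 passed by edgeR, and 1 of 18 (Adcy5) had an unadjusted p under 0.05, a share below the 8.72% of all genes tested, with a median log2 fold change of 0.13. Adcy5, an adenylyl cyclase inhibited by Gi, was at 54.2 ± 6.97 CPM in cKO (SD, n = 5) and 40.6 ± 1.67 CPM in WT (SD, n = 3), with no overlap between the groups (log2 fold change 0.41 ± 0.13, SE; edgeR adjusted p 0.499). The next genes by p overlapped between the groups: the cyclase Adcy9 at 0.55 ± 0.26, the beta subunit gene Gnb5 at 0.34 ± 0.19 and the alpha subunit gene Gnai3 at -0.32 ± 0.22 (log2 fold change ± SE; edgeR adjusted p 0.578, 0.648 and 0.736). Gnao1 and Gnai1, the alpha subunit genes of the list with the most counts, had log2 fold changes of -0.03 and 0.0014. The Kcnj3, Kcnj6 and Kcnj9 channel genes, which encode G protein-gated potassium channels, had log2 fold changes of 0.11, 0.23 and 0.21, and Kcnj5, of the same family and with 70 counts over all libraries, one of -1.02 ± 1.32 (SE).

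The genes whose pattern over the 8 libraries was most like that of Chrm1 were Ncs1, Zhx3 and Wasf3, out of 9400 genes with a mean of at least 5 CPM. Likeness was the root mean square difference of log2 CPM after centring each gene, which was 0.05, 0.06 and 0.06 for these genes, against a spread of 0.20 for Chrm1 itself. Ncs1 was at 116, 105, 119 and 146 CPM in cKO 1, 2, 3 and 4 and 161 CPM in the library labelled cKO 5, against 117, 101 and 104 CPM in WT 1, 2 and 3, again highest in cKO 4 and the library labelled cKO 5. For Chrna4, the nicotinic gene with the highest RPKM, the nearest genes were Alkbh6, Rps27 and Gng13, at 0.15, 0.17 and 0.17 against a spread of 0.35. Likeness over 8 libraries is a description of these libraries.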

How the data were processed

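The deposited table holds raw counts per Ensembl gene for 8 libraries, whole numbers that the authors did not scale. The submitters' processing notes name STAR 2.5.3a, HTSeq and mm10; annotation release, strandedness and filters are not given in the sources used here. Symbols, positions and exon lengths came from GENCODE vM21, on the same assembly, which matched 37693 of 39017 identifiers.

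The counts were fitted with edgeR 4.0.16 under R 4.3.3: TMM scaling, filterByExpr, robust quasi-likelihood fit of cKO against WT, two-sided, with Benjamini-Hochberg adjustment over 17654 genes and a threshold of 0.05. SE is the absolute log2 fold change over the square root of F. DESeq2 1.42.0 and limma-voom (limma 3.58.1) were alternatives. For single values, exact two-sided permutation tests ran over the 56 assignments of 8 libraries to 5 and 3 (smallest p 0.0179) or, for levels within libraries, over 256 sign flips (smallest p 0.00781). Ratios used 0.5 counts added. Counts were lowest for Chrm2 (51 to 215 per library) and Chrm5 (86 to 265), which limits their precision most.

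The 9 genes, the pathway lists and the marker lists were chosen with earlier results of these data known. From each pathway list, up to 4 genes with the smallest p are named, plus any past the threshold. The channel genes Kcnq3, Kcnq5, Kcnj3, Kcnj5, Kcnj6, Kcnj9 and Chrna2 were added after their values were seen. So were the chaperone genes Ric3 and Tmem35a and the G protein genes Gnaq, Gnao1 and Gnai1. The markers Prox1, C1ql2, Dsp, Tdo2, Lct, Wfs1, Fibcd1, Spink8, Camk2a, Slc17a7 and Slc1a2 were also added after their values were seen. The same holds for the markers Mbp, Cnp, Mag, Mog, Opalin, Cldn11, Ntng1, Rora, Tcf7l2, Lef1, Kl, Ttr and Folr1. Some genes of these lists are counted but not reported here by name. Python 3.11.15 with matplotlib 3.10.9 drew the figures.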

Additional observations from a re-analysis of the deposited data

Results flagged for a closer look

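Of 37 groups of 5 cKO values examined for a library far from the others, 4 stood out, where chance gives about 1 in 20 groups, or 1.85. Chrm2 in cKO 4 was at 4.64 CPM, against 1.59 to 2.06 CPM in the remaining 4, so that 0.845 of the range lay between it and the nearest. Hltf in the library labelled cKO 5 was at 11.4 CPM, against 2.83 to 5.10 CPM in the other cKO libraries. Chrnb1 in cKO 4 was at 1.12 CPM, against 0.543 to 0.706 CPM in the other cKO libraries. Dagla in the library labelled cKO 5 was at 131 CPM, against 82.9 to 96.9 CPM in the other cKO libraries.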

How the results depend on the processing

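Of 180 comparisons of a receptor fold change with another setting, 158 kept direction and side of the threshold, 22 reversed and 0 passed the threshold. With 1 library left out, log2 fold changes ran from 0.46 to 0.59 for Chrna7, 0.19 to 0.42 for Chrnb2, 0.16 to 0.30 for Chrm1, 0.10 to 0.36 for Chrm3, 0.02 to 0.50 for Chrna5, -0.64 to 0.19 for Chrm2, -0.10 to 0.21 for Chrm4, -0.43 to 0.12 for Chrm5 and -0.11 to 0.17 for Chrna4. Reversals by other settings were 0.13 for Chrm2 and 0.19 for Chrm5 with the non-neuronal covariate, -0.051 for Chrm3 and -0.088 for Chrna5 over 6 libraries, -0.069 for Chrna5 by limma-voom, and for Chrna4 -0.0041 with upper-quartile scaling, -0.0004 without a filter and -0.14 once GC content and length were corrected for; the cause was not tested. That correction gave 0.63 for Chrna7 and 0.20 for Chrnb2.

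With a block for replicate number (6 libraries), Chrm3 was at -0.043, Chrna4 at -0.0089 and Chrna5 at -0.070, and 0 genes were called; the deviations of same-numbered libraries had r of -0.21, 0.06 and 0.08 across genes, which gives no sign of pairing.

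Genes called higher and lower were 0 and 0 with each library left out, 2 and 0 without a filter or with genes kept at 1 CPM or more in 3 libraries, 86 and 57 by DESeq2, 3 and 1 by limma-voom, 5 and 5 over 6 libraries, 298 and 115 with the non-neuronal covariate and 3 and 0 with the dentate covariate. The non-neuronal covariate was not balanced between the groups. Among checks and pathway genes, Rpl10a, Chrna3 and Chrnb1 reversed with 1 library left out (-0.038 to 0.069, -0.0048 to 0.76 and -0.017 to 0.9999), and Lynx1, Ly6h and Gna11 were among those that passed with the non-neuronal covariate.

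Differences of log2 ratios ran, with 1 library left out, from -0.10 to 0.039 for Chrm3 to Chrm1 and -0.063 to 0.55 for Chrna5 to Chrna4; over 6 libraries, added after seeing the data, they were -0.051 for Chrna5 to Chrna4 and 0.039 for Chrm4 to Chrm1. With the longest transcript the log2 step from Chrna4 to Chrm3 was -0.026, from Chrm3 to Chrm4 0.63, from Chrm4 to Chrnb2 -0.29, from Chrnb2 to Chrna7 0.26 and from Chrna7 to Chrm5 1.01; in WT alone the last was -0.10.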
